A study of Mus musculus with 20 samples.

Results

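The opening of chromatin between 16 h and day 1 of GATA6 induction was measured at 42403 GATA6-bound regions of the mouse genome. All 42403 regions of the table entered the comparison, and the 6 samples behind it, 3 collected at 16 h and 3 at day 1, came from a series of 20. Accessibility was measured by ATAC-seq, in which the Tn5 transposase cuts and tags exposed DNA. Each value is the authors' average of a group in RPM, reads in a region scaled to a library of 1000000 reads, not divided by the width of the region. The change of a region is the difference of log2(RPM + 0.03), day 1 minus 16 h, and 0.03 RPM is a constant that keeps low values from giving large ratios.

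Both groups were KH2 ES cells of C57BL/6 x 129/Sv background with a doxycycline-inducible gata6 cassette. They were grown with serum and LIF on gelatin and mitomycin C-inactivated MEF feeders, and GATA6 was induced with doxycycline at 1 ug/mL. Feeders were removed by letting them attach for 20 min before transposition, so that some may have remained. GATA6 was switched on from a transgene in cultured ES cells, which are not a developing embryo. The treatment labels list 24 h and 48 h of doxycycline for the groups titled 16 h and day 1, and the titles were used. By the study's methods, the samples of a group came from independent cultures, which the labels do not state. In bulk samples, opening in more cells and wider opening in each cell cannot be told apart.

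GATA6 is a zinc finger factor that recognises the letters GATA and can bind DNA wrapped on nucleosomes. In the blastocyst it sets the inner cell mass on the path to primitive endoderm, which later gives the yolk sac endoderm. SOX17, an HMG box factor of the endoderm, is expressed after GATA6. OCT4, SOX2 and ESRRB hold ES cells in pluripotency and are called the pluripotency TFs (PTFs). The authors placed each region in classes by transcription factor binding: the course of GATA6 (Early&Constant, Late or Transient), SOX17 bound or not, and PTFs bound at d0, bound ectopically after induction, or not bound. Regions were also classed as closed, moderate or accessible at d0, and by how GATA6 binding changed on Oct4 knockdown. The SOX17 and PTF classes rest on peak calls, and a class does not show that a factor was bound at 16 h or day 1. None of these classes was made from the ATAC-seq values of 16 h or day 1.

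The DNA of 4 regions is shown because the results for single regions turn on them. The region upstream of Casz1 was called higher at day 1, those near Cxcr4 and Lrig3 were among the 10 with the largest differences, and the region near 4931417E11Rik was one of 2 called lower after scaling of the libraries. Each stretch covers the summit of the GATA6 peak and the best GATA6, SOX17 and OCT4:SOX2 matches that the authors deposited for the region, in capitals, with the plus strand of mm10 (GRCm38.p6) written 5′ to 3′. The stretches are chr4:148783678-148783933 for Casz1, chr1:128654297-128654553 for Cxcr4, chr10:126019791-126020036 for Lrig3 and chr6:74354002-74354185 for 4931417E11Rik.
Casz1: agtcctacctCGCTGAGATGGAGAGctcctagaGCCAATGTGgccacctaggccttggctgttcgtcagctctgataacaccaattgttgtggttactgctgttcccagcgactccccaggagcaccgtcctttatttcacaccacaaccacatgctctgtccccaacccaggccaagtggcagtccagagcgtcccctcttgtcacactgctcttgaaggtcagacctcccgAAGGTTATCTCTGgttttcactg
Cxcr4: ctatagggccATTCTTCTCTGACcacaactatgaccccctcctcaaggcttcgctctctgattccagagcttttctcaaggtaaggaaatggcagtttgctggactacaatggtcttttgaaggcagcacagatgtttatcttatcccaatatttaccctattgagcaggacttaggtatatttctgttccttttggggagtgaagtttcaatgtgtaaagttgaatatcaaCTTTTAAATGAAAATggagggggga
Lrig3: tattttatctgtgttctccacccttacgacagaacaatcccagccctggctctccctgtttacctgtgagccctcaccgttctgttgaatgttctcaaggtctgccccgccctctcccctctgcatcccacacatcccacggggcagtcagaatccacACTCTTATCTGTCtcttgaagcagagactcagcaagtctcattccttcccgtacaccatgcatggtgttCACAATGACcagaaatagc
4931417E11Rik: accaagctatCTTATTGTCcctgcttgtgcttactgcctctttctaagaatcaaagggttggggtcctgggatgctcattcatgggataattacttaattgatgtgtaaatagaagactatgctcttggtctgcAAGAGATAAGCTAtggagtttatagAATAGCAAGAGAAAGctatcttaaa

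In the Casz1 stretch the GATA6 match, CAGAGATAACCTT on the minus strand, had a deposited motif score of 8.61, lower than the median best score of 10.2 over all regions. Its SOX17 match, CACATTGGC on the minus strand, scored 8.98, and its OCT4:SOX2 match, CGCTGAGATGGAGAG, scored 5.36. The Lrig3 stretch held a GATA6 match of 14.5, GACAGATAAGAGT, and a SOX17 match of 11.5, GTCATTGTG, while its best OCT4:SOX2 match lay 408 bp from the summit, outside the stretch, and scored 14.5. In the Cxcr4 stretch the GATA6 match, GTCAGAGAAGAAT, lacked the letters GATA and scored 8.56, but GATAA occurred 2 times on the minus strand elsewhere in the stretch. Counted on both strands, each of the 4 stretches held GATAA 2 times. The stretch near 4931417E11Rik, which was lower at day 1, held a GATA6 match of 12.3, AAGAGATAAGCTA, and a SOX17 match of 11.3, CTTATTGTC.

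Most regions were slightly more accessible at day 1 than at 16 h. The change was above zero at 33280 regions (78.5%), with a median of 0.23 and quartiles of 0.03 and 0.42. The median value of a region was 0.0901 RPM at 16 h and 0.112 RPM at day 1, and the regions together held 7137 and 8959 RPM. The changes spanned -1.09 to 1.62, and all but the outermost 5% on each side lay between -0.25 and 0.70.

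Reads of the single libraries could be recovered from the averages at 24999 regions (59.0%), so that this shift could be set against the spread between libraries. Letters given here to the libraries name them only, as the samples they belong to are not labelled. The 16 h and day 1 libraries held 181165784 to 261418136 reads, and the median region held 13, 18 and 27 reads in the 16 h libraries A, B and C and 19, 32 and 25 in the day 1 libraries. Median values were 0.0679, 0.0863 and 0.123 RPM at 16 h and 0.105, 0.142 and 0.0956 RPM at day 1. The groups overlapped, with the 16 h library C above the day 1 libraries A and C. The recovered regions held 3012, 4061 and 5981 RPM at 16 h and 4813, 7183 and 4407 RPM at day 1, a mean difference of 0.35 on the log2 scale (2-sided exact permutation test, p = 0.4, where the smallest p that 3 against 3 allows is 0.1). The general shift was thus not larger than the spread between libraries. Values are therefore also given relative to the median of all regions, which was higher at day 1 by 0.24 between the averaged columns.

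**Figure D1:**
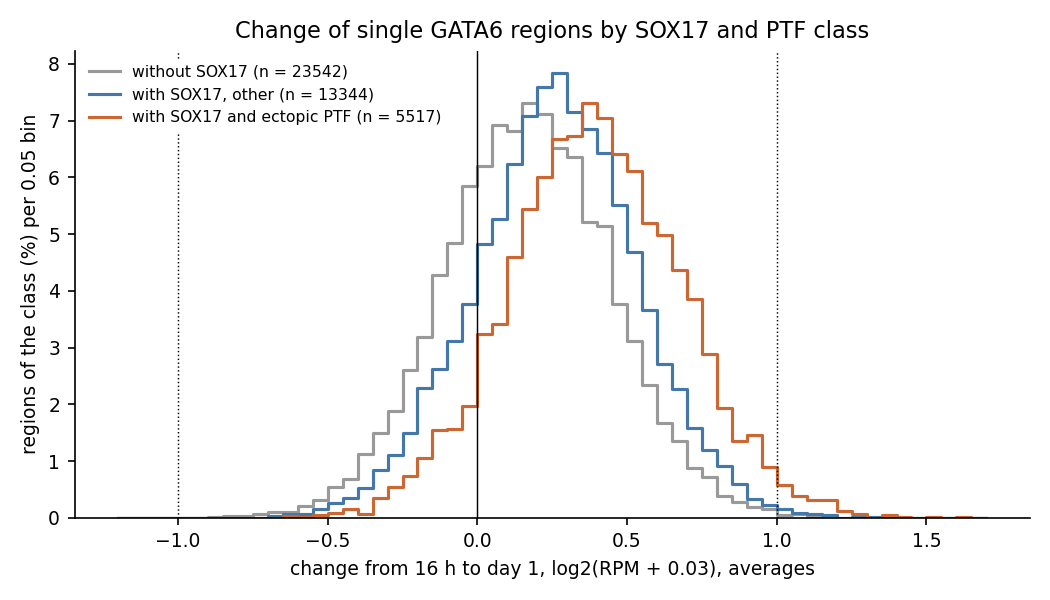
Distribution of the change of single regions from 16 h to day 1 (x axis, log2(RPM + 0.03), averages of a group; y axis, percent of the regions of a class in each bin of 0.05) for regions with ectopic PTFs and SOX17, other regions with SOX17, and regions without SOX17. The medians lie at 0.39, 0.27 and 0.17, and the 3 distributions overlap over most of their range.

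A change past 2-fold was found at 198 regions that were higher at day 1 (0.467% of all regions) and at 2 that were lower (0.00472%). Once both columns were set to the same median, these counts became 17 (0.0401%) and 16 (0.0377%). The region just inside the limit lay nearest to Slc41a2, with 0.0366 RPM at 16 h and 0.103 RPM at day 1, and the region just outside nearest to Camk2n1, with 0.223 and 0.476 RPM. Of the 198 regions 118 had recovered libraries, and the count moved with single libraries: it was 1132 without 16 h library C, 467 without day 1 library C, 253 without day 1 library A, 53 without 16 h library A and 37 without day 1 library B.

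Across the recovered regions, limma called 1 region higher at day 1 (0.004% of 24999) and 0 lower at a Benjamini-Hochberg adjusted p under 0.05. At an unadjusted p under 0.05, 1825 regions were higher (7.3%) and 70 lower (0.28%). The 3 day 1 libraries lay above all 3 of 16 h at 2115 regions (8.46%) and below them at 294 (1.18%). With each library set to the same median, limma called 19 regions higher (0.076%) and 2 lower (0.008%), and regions without overlap numbered 1511 (6.04%) higher and 1535 (6.14%) lower.

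The called region lay in intergenic DNA at chr4:148783454-148784123, 20.6 kb upstream of Casz1, which encodes a zinc finger transcription factor. It held 0.0104, 0.0767 and 0.132 RPM in the 16 h libraries and 0.243, 0.404 and 0.210 RPM in those of day 1, from 2, 16, 29, 44, 91 and 55 reads. All 3 day 1 libraries were higher than all 3 of 16 h. The region rose by 1.78 ± 0.35 on the log2 scale (limma, SE, adjusted p = 0.00992), and by 1.53 with libraries set to the same median (adjusted p = 1.95e-06). Its averages went from 0.0941 RPM at 8 h and 0.073 RPM at 16 h to 0.286 RPM on day 1, 1.17 RPM on day 2 and 0.579 RPM on day 4. The region was closed at d0, Early&Constant for GATA6, bound by SOX17 and ectopically by PTFs, and among those where GATA6 binding decreased on Oct4 knockdown. The call depended on single libraries: the adjusted p was 1.00 without 16 h library A, which held 2 reads, 0.085 without 16 h library B, 0.11 without day 1 library A and 1.00 without day 1 library B.

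The 10 regions with the largest differences upward were chosen from the averages, so their values are a description. The Cxcr4 region, 62.1 kb upstream of the gene for a chemokine receptor, held 0.0993, 0.163 and 0.373 RPM at 16 h and 0.491, 0.817 and 0.451 RPM at day 1. The Lrig3 region, 53.7 kb downstream of the start of a gene for a transmembrane protein with leucine-rich repeats, held 0.125, 0.158 and 0.227 RPM and then 0.342, 0.684 and 0.344 RPM. The Esrrg region, an intron nearest to the gene for an orphan nuclear receptor related to ESRRB, held 0.0470, 0.0958 and 0.127 RPM and then 0.304, 0.315 and 0.214 RPM. In all of these regions the lowest day 1 library was above the highest of 16 h, and the 16 h library C was the highest of its group. The Wwox intron, nearest to a gene for an oxidoreductase with WW domains, held 0.0731, 0.101 and 0.109 RPM and then 0.259, 0.369 and 0.245 RPM. The Mical2 intron, nearest to a gene for an enzyme that oxidises actin, held 0.0418, 0.0527 and 0.132 RPM and then 0.226, 0.298 and 0.180 RPM. The Cd247 intron, nearest to the gene for the zeta chain of the T cell receptor complex, held 0.0418, 0.0863 and 0.123 RPM and then 0.270, 0.329 and 0.138 RPM. The day 1 library C was the lowest of its group in these 3 introns and in Cd247 came close to the 16 h library C.

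Introns nearest to 9630041A04Rik and to Prkch, which encodes a protein kinase C, completed the recovered members. The former held 0.0261, 0.0431 and 0.0818 RPM at 16 h and 0.226, 0.227 and 0.115 RPM at day 1, and the latter 0.0418, 0.0479 and 0.0454 RPM and then 0.0994, 0.284 and 0.0918 RPM. In Prkch the day 1 library B was about 3 times the others. For the Dab2ip intron, nearest to the gene for a regulator of Ras, only the averages were available, 0.104 RPM at 16 h and 0.355 RPM at day 1. None of the 8 recovered regions other than Casz1 passed limma (log2 differences of 1.18 to 1.47, SE 0.34 to 0.36, adjusted p 0.33 to 0.52). Of the 10 regions, 9 were closed at d0 (61.3% of all regions), 8 bound SOX17 (44.5%) and 7 bound both SOX17 and ectopic PTFs (13.0%). The average at 16 h was below that at 8 h in 4 of the 10, and the average at day 2 was above that of day 1 in all 10.

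**Figure D2:**
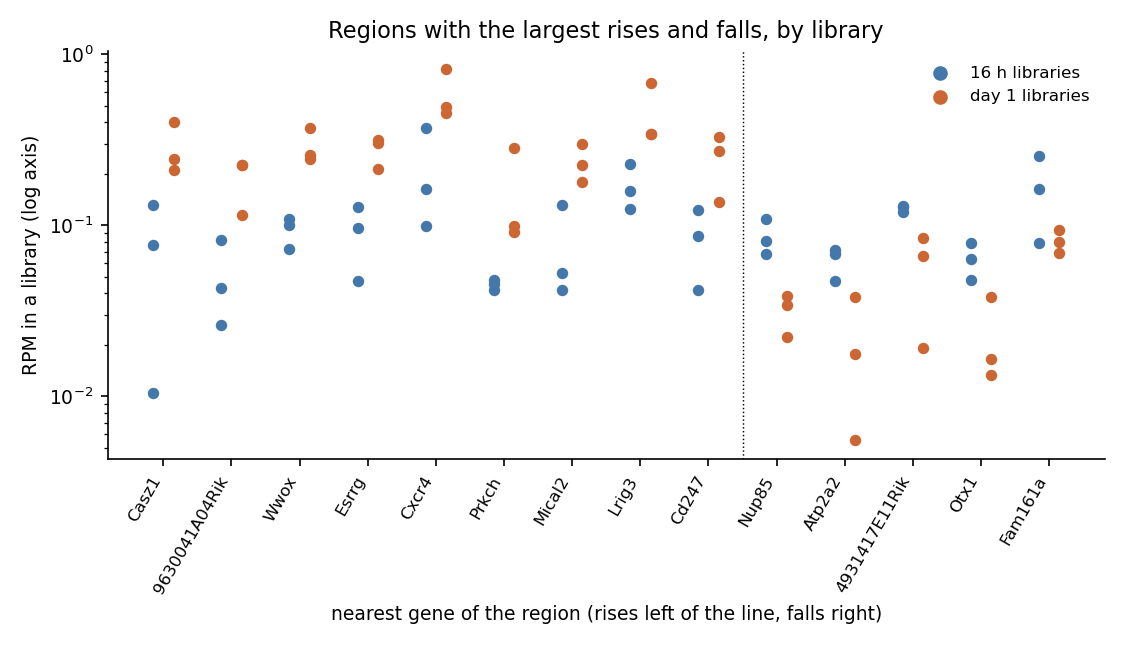
RPM in each recovered library (y axis, log scale) at the regions with the largest differences from 16 h to day 1, named by the nearest gene (x axis), with regions higher at day 1 left of the line and lower ones right of it. Points are the 3 libraries of 16 h and the 3 of day 1. The regions were chosen by the difference of the averages, and the groups are apart in all 9 of the higher regions and in 4 of the 5 lower ones.

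After the libraries were set to the same median, the 19 regions called higher included 15 with SOX17 and ectopic PTFs (13.0% of all regions) and 18 with SOX17 (44.5%). Beside Casz1, Cxcr4, Esrrg, Wwox, Mical2, Lrig3, Cd247 and 9630041A04Rik they lay nearest to Podxl, Cachd1, Pigr, Oma1, Cited2, Tmem140, Pdk4, Olfr65, Txndc5, Spns2 and Tgfb3. Podxl, which encodes the sialomucin podocalyxin, had a region 51.7 kb upstream with 0.0731, 0.158 and 0.209 RPM at 16 h and 0.337, 0.480 and 0.344 RPM at day 1, a rise of 1.06 relative to the median (limma, adjusted p = 0.0044). Pigr, the receptor that carries polymeric immunoglobulins across epithelia, had a region 4.42 kb upstream with 0.131, 0.153 and 0.218 RPM and then 0.381, 0.480 and 0.394 RPM, a rise of 0.95 (limma, adjusted p = 0.025). Tgfb3, a ligand of the TGF-beta family, had an intronic region with 0.0679, 0.0767 and 0.127 RPM and then 0.188, 0.364 and 0.195 RPM. In these 3 regions every day 1 library was above every 16 h library. Over the 19 regions this held at 17 (8.46% of all recovered regions), and at Cited2 and Olfr65 the libraries overlapped. The regions were called from these same libraries, so that their separation is no second result. Average values went on to be higher at day 2 than at day 1 at all 19. The count of 19 rested on single libraries too: it was 0 without 16 h library A (876 at an unadjusted p under 0.05), 7 without 16 h library B, 54 without 16 h library C, and 7, 8 and 15 without the day 1 libraries A, B and C.

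Of the 10 regions with the largest differences downward, 8 were Transient (38.4% of all regions), 0 bound SOX17 (44.5%) and 0 bound ectopic PTFs (16.6%). At Klf5, a pluripotency factor of the KLF family, a region 53.4 kb from the start was at 0.135 RPM at 16 h and 0.0473 RPM at day 1, a change of -1.09 in averages only. The region nearest to 4931417E11Rik, 884 kb from it, held 0.120, 0.129 and 0.127 RPM at 16 h and 0.0662, 0.0844 and 0.0191 RPM at day 1. Its fall by 1.18 relative to the median passed limma (adjusted p = 0.037), while the unscaled difference of -0.93 ± 0.32 did not (adjusted p = 0.56). The other lower call was an intron near Wtip, with 0.204, 0.340 and 0.373 RPM and then 0.188, 0.195 and 0.126 RPM, which fell by 0.98 relative to the median (limma, adjusted p = 0.046). The highest day 1 library was below the lowest of 16 h in both, which were called from these same libraries. A region 6.15 kb upstream of Nup85, which encodes a nuclear pore protein, held 0.0679, 0.0815 and 0.109 RPM and then 0.0386, 0.0222 and 0.0344 RPM. An intron nearest to Atp2a2, which encodes a calcium pump of the endoplasmic reticulum, held 0.0470, 0.0719 and 0.0682 RPM and then 0.00552, 0.0178 and 0.0383 RPM. Neither passed limma (adjusted p = 0.56 and 0.52), although the libraries did not overlap. Near Fam161a the 16 h values of 0.0784, 0.163 and 0.254 RPM overlapped those of day 1, 0.0938, 0.0799 and 0.0689 RPM.

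The 198 regions past 2-fold were mostly closed at d0, distal and, by class, bound by several factors. At d0 157 (79.3%) were closed, against 61.3% of all regions. SOX17 was bound at 154 (77.8%, against 44.5% of all), ectopic PTFs at 107 (54.0%, against 16.6%), and both at 104 (52.5%, against 13.0%). By GATA6 course 98 were Early&Constant, 59 Late and 41 Transient. They lay in intergenic DNA at 59.6% (46.1% of all regions) and in introns at 38.4% (45.4%). Of the 198, 1 (0.505%, against 6.57% of all regions) was a promoter, defined as within 1000 bp of an annotated start. Their median distance to the nearest start of a protein-coding gene was 49.8 kb, against 31.1 kb for all regions. They lay nearest to 194 different genes, and no gene had 3 or more of them.

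Their median value was 0.0663 RPM at d0, then 0.0769 RPM after 8 h and 0.0802 RPM after 16 h. It reached 0.206 RPM by day 1 and 0.626 RPM by day 2, and was 0.388 RPM on day 4. The columns of 8 h, day 2 and day 4 had no part in the choice. Between 8 h and day 2, 186 of the 198 were higher past 2-fold (93.9%, against 36.3% of all regions), and between 8 h and day 4 157 were (79.3%, against 30.1%). At day 4, 11 lay below their 8 h value. The 4174 regions with 1.5 to 2-fold more signal at day 1 stood between these and the whole set, at 71.4% past 2-fold by day 2.

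The shares of these 198 regions with a deposited motif match lay near those of all regions. A GATA6 match was listed at 84.3% (89.7% of all regions), a SOX17 match at 76.3% (69.2%), an OCT4:SOX2 match at 67.2% (71.5%) and an ESRRB match at 42.9% (36.3%). In the 201 bases around the summit, read on both strands, AGATAA occurred at 43.4% of them against 54.3% of all regions, and the SOX letters ACAATGG at 15.2% against 8.96% and ATTGTT at 29.3% against 21.6%. The OCT letters ATGCAAAT occurred at 0 of 198 and at 3.0% of all. A SOX and an OCT site joined as TTGTATGC, 1 base shorter than the usual TTGTTATGC, occurred at 4 (2.02%) against 0.781%, and the usual form at 0 against 0.321%. The AP-1 letters TGACTCA were about as frequent in both, at 8.08% and 7.82%.

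Over all regions, the change differed little with the number and score of GATA6 matches. Regions with no GATA6 match had a median change of 0.26, those with 1, 2 or 3 matches 0.22, 0.22 and 0.21, and those with 6 or more 0.24. From the lowest to the highest of 4 equal bins of the best GATA6 score the median went from 0.24 to 0.21. With SOX17 matches it was 0.21 for none, 0.24 for 2 and 0.30 for 6 or more, where regions with 6 or more were also wider (median width 1411 bp against 421 bp for none). With ESRRB matches it was 0.21 for none, 0.27 for 2 and 0.30 for 4 or 5, again with wider regions (469 bp for none and 1256 bp for 4 or 5). With OCT4:SOX2 matches the medians were 0.22 to 0.23 from none to 6 or more. Among regions with 0.1 to 0.3 RPM at 8 h, however, they were 0.28 for none and 0.23 for 6 or more, and those by ESRRB matches 0.27 for none and 0.30 for 4 or 5.

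Of the 21 classes, those with ectopic PTFs, with GATA6 binding that decreased on Oct4 knockdown, with Early&Constant GATA6 and with SOX17 had the largest median changes. Regions with SOX17 (18861) had a median region change of 0.30, from 0.113 to 0.151 RPM in medians, and regions without it (23542) 0.17, from 0.0772 to 0.0905 RPM. Regions with ectopic PTFs (7038) had 0.36, those with PTFs at d0 (8841) 0.28 and those with none (26524) 0.17. Past 2-fold were 0.817% of regions with SOX17 and 0.187% without, and 1.52%, 0.249% and 0.260% of the 3 PTF classes. By GATA6 course Early&Constant regions (11875) had a median of 0.31, Transient regions (16285) 0.21 and Late regions (14243) 0.18. Regions where GATA6 binding decreased on Oct4 knockdown (2651) had 0.35, those where it increased (3636) 0.19 and those where it did not change (36116) 0.22. Relative to the median region, Early&Constant regions stood 0.08 above, Transient regions 0.02 below and Late regions 0.05 below.

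The classes differed in level and width, and the constant of 0.03 RPM weighs more on low values. Late regions were at 0.0418 RPM at 16 h (median width 410 bp), Transient regions at 0.120 RPM (514 bp) and Early&Constant regions at 0.159 RPM (760 bp). Among regions with 0.1 to 0.3 RPM at 8 h, a range added after the data were seen, Early&Constant regions had 0.35, Late regions 0.29 and Transient regions 0.22. In this range regions with SOX17 had 0.36 and those without 0.20, and ectopic PTFs 0.40 against 0.23 with no PTF. Late regions thus lay above Transient ones in this range and below them over all levels, while the order by SOX17 and PTFs was the same in both. The range held 1796 of 14243 Late and 6193 of 16285 Transient regions, and levels within it were not matched.

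The 16 combinations of the 3 classes with at least 200 regions ran from 0.13 to 0.40. With ectopic PTFs and SOX17 the median region change was 0.40 in Early&Constant (3725 regions), 0.39 in Transient (533) and 0.37 in Late regions (1259). With PTFs at d0 and SOX17 it was 0.35 in all 3 courses. Without PTFs and SOX17 it was 0.18 in Early&Constant, 0.16 in Transient and 0.13 in Late regions. Early&Constant regions with no SOX17 reached 0.26 with ectopic PTFs and 0.18 with PTFs at d0. So the medians of the 3 courses lay close together in both the highest and the lowest set. With SOX17 and no PTF they lay further apart, at 0.31 in Transient, 0.26 in Early&Constant and 0.19 in Late regions. The combination with the largest share past 2-fold was Late with ectopic PTFs and SOX17, at 29 of 1259 regions (2.30%, against 0.467% of all regions).

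**Figure D3:**
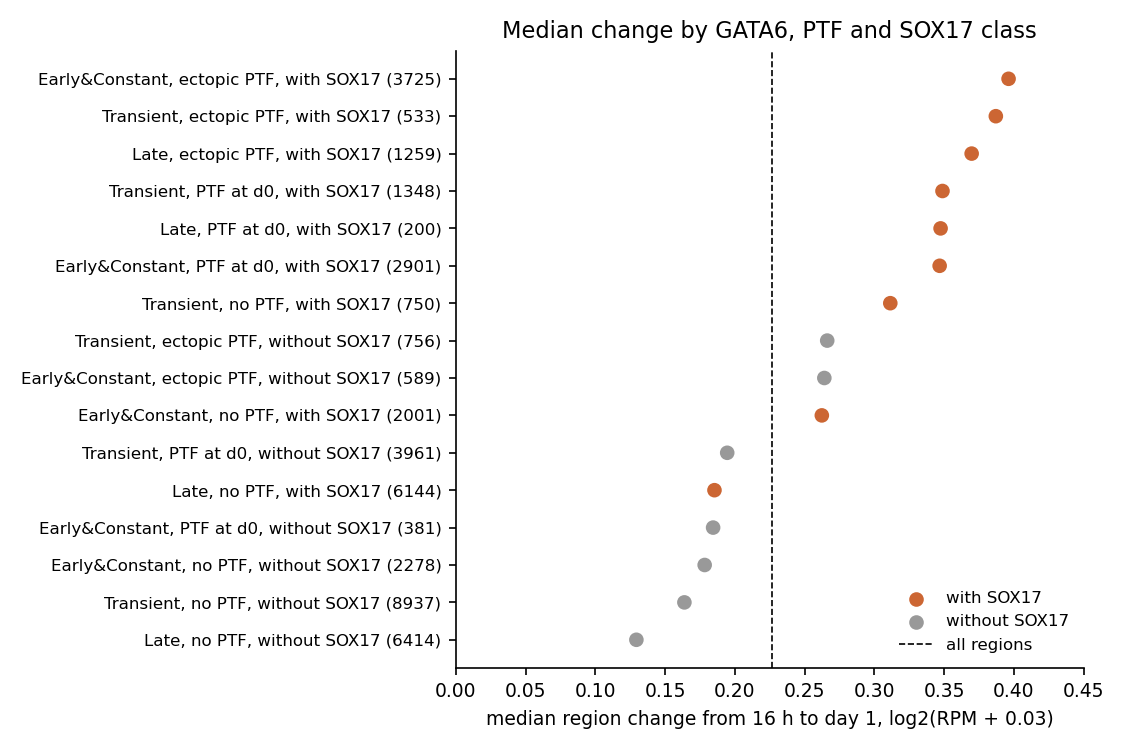
Median region change from 16 h to day 1 (x axis, log2(RPM + 0.03)) for each combination of GATA6 course and PTF class (y axis), with SOX17 and without it. The dashed line is the median of all regions, 0.23, and points with SOX17 run from 0.19 to 0.40 while those without run from 0.13 to 0.27.

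Class medians in single libraries carried the spread of the libraries. For regions with SOX17 the mean over libraries differed by 0.36 (SD 0.35 at 16 h and 0.25 at day 1, n = 3 each, 2-sided exact permutation test p = 0.3). No class of 21 reached the smallest p, and all adjusted p were 0.4. Set to the median of all regions in each library, regions with SOX17 were 0.11 higher at day 1 (exact permutation p = 0.1, adjusted p = 0.70 over 21 classes). Regions without SOX17 are the complement under this joint median, so that their value of -0.07 is no second result.

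A difference of 2 classes within a library lessens the weight of its total but does not remove it. Of 14 such contrasts, which share regions, 7 separated the libraries of 16 h from those of day 1. Regions with SOX17 were more accessible than regions without it by 0.377, 0.394 and 0.456 in the 16 h libraries and by 0.667, 0.603 and 0.502 in those of day 1. Every day 1 library was above every 16 h library. Among those of 16 h the contrast was widest in library C, which also had the highest level, and at day 1 it was widest in library A, while library B had the highest level. The means were 0.41 ± 0.04 and 0.59 ± 0.08 (SD, n = 3), a widening of 0.18 (2-sided exact permutation p = 0.1, the smallest that 3 against 3 can give, adjusted p = 0.2 over 14 contrasts). The same contrast was 0.28 at 8 h, 1.48 at day 2 and 1.54 at day 4.

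Within Early&Constant regions the SOX17 contrast was 0.730, 0.809 and 0.945 at 16 h and 0.988, 1.15 and 0.958 at day 1. These libraries did not overlap either, but the highest of 16 h and the lowest of day 1 lay close together, and the mean widened by 0.20 (exact permutation p = 0.1). Within each group this contrast was wider in libraries that held more RPM in the recovered regions. The part of the library total in the widening was not tested. The SOX17 contrast widened by 0.13 in Early&Constant regions without PTFs and by 0.10 in Late regions (exact permutation p = 0.1 for both). In Transient regions it widened by 0.22 with overlap (exact permutation p = 0.2). Early&Constant regions stood above Transient ones by 0.338, 0.338 and 0.358 at 16 h and by 0.578, 0.487 and 0.416 at day 1. This contrast widened by 0.15 without overlap (exact permutation p = 0.1), from 0.10 at 8 h and up to 1.43 at day 2.

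Ectopic PTFs showed a like pattern. Within Early&Constant regions, those with ectopic PTFs stood above those with no PTF by 0.438, 0.539 and 0.591 in the 16 h libraries. In those of day 1 they did so by 0.704, 0.763 and 0.646. The means were 0.52 and 0.70, a widening of 0.18 (exact permutation p = 0.1). Within each group this contrast too was wider in libraries with a higher total. Where both sides also bound SOX17 the widening was 0.12 (exact permutation p = 0.1). Over all GATA6 courses it was 0.21, from 0.79 to 1.00, with overlap (exact permutation p = 0.2). For PTFs at d0 against none it was 0.10 (p = 0.7), for Early&Constant against Late 0.21 (p = 0.5), and for GATA6 binding that decreased against increased on Oct4 knockdown 0.21 (p = 0.6), all by exact permutation and with overlap. Closed Early&Constant regions lay below accessible ones by 2.50 at 16 h and 2.48 at day 1, with overlap, so that the gap was narrower by 0.01 (exact permutation p = 0.8). The adjusted p was 0.2 or higher for all 14 contrasts.

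**Figure D4:**
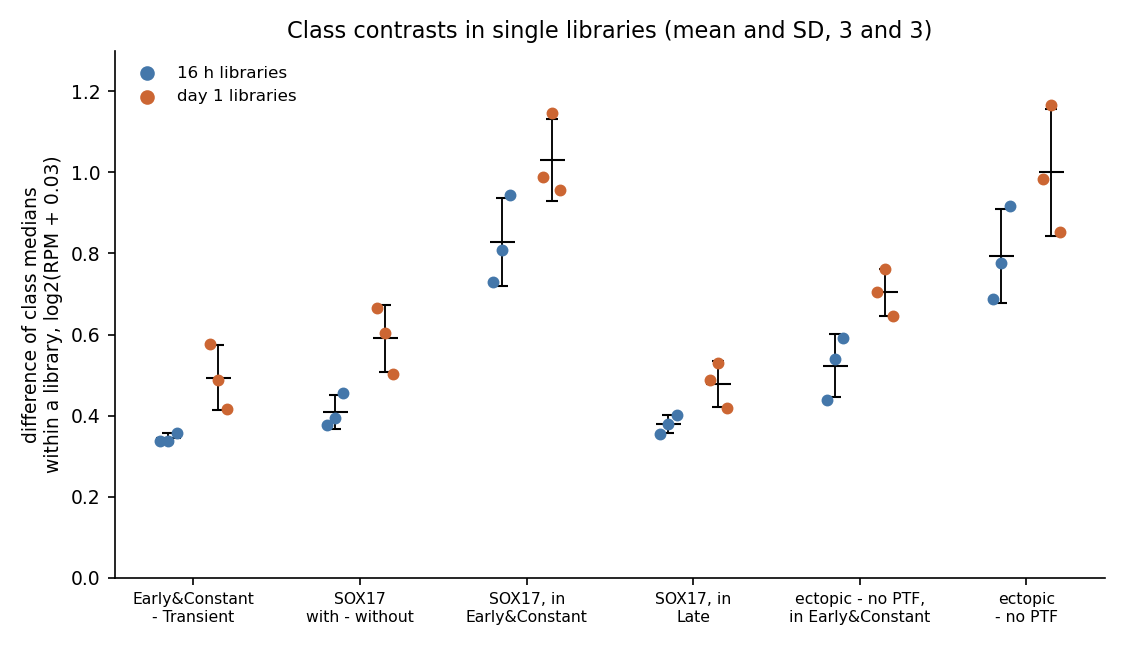
Difference of 2 class medians within a library (y axis, log2(RPM + 0.03)) for the contrasts named on the x axis, in each of the 3 libraries of 16 h and the 3 of day 1, with the mean and SD of a group. For the SOX17 contrast the 16 h libraries lie between 0.377 and 0.456 and those of day 1 between 0.502 and 0.667.

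GC content moved with the change as well. From the lowest to the highest of 4 equal bins of GC content in the 201 bases around the summit, the median region change was 0.14, 0.21, 0.26 and 0.29, and the median level at 16 h went from 0.0482 to 0.190 RPM. The contrast between the highest and the lowest bin was 1.41 ± 0.24 in the libraries of 16 h and 1.59 ± 0.30 at day 1 (SD, n = 3, exact permutation p = 0.5). Regions with SOX17 had a lower median GC content than those without, 44.8% against 45.8%. Within each of the 4 bins, split after the data were seen, the SOX17 contrast widened by 0.17 to 0.19, without overlap of the libraries in 3 of them (exact permutation p = 0.1, and 0.2 in the bin of highest GC). The contrast of ectopic against no PTF widened by 0.20 to 0.25, with overlap in 3 of the 4 bins, and that of Early&Constant against Transient by 0.13 to 0.17, with overlap in the 2 bins of highest GC (exact permutation p = 0.2 where libraries overlapped and 0.1 elsewhere).

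By position the change was even. The median region change was 0.22 at promoters (2784 regions), 0.21 in introns (19266) and 0.25 in intergenic DNA (19554). It was 0.21 within 1 kb of a start and 0.24 at 50 to 200 kb, and by chromosome it ran from 0.20 on chromosome 19 to 0.25 on chromosome 5. Promoters had the higher level, 0.296 RPM at 16 h against 0.0850 RPM in intergenic DNA, at like median widths of 538 and 525 bp. The share past 2-fold was 0.0359% at promoters and 0.603% in intergenic DNA.

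The step from 16 h to day 1 was small beside the next one, which by the titles was also longer. By the treatment labels these steps were of the same length, and the step from 8 h to 16 h was shorter. The changes are not divided by time. The median region change was 0.09 from 8 h to 16 h, 0.23 from 16 h to day 1 and 0.38 from day 1 to day 2, and the regions higher past 2-fold numbered 269, 198 and 8387. Early&Constant regions had 0.25, 0.31 and 0.73 in these steps, Late regions -0.03, 0.18 and 0.54, and Transient regions 0.07, 0.21 and -0.06. Regions with ectopic PTFs had 0.25, 0.36 and 1.01. Early&Constant regions higher past 2-fold were 228 (1.92%) from 8 h to 16 h and 98 (0.825%) from 16 h to day 1. For Late regions these were 7 (0.0491%) and 59 (0.414%), where the shares over all regions were 0.634% and 0.467%. These steps share columns and so are not independent. No single region was called by limma for a step from 16 h to day 1 that differed from the step before it (0 of 24999, with 617 higher and 127 lower at an unadjusted p under 0.05).

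Genes of the primitive endoderm were described through the regions nearest to their starts. The 8 transcription factors of the lineage had 101 regions with a median change of 0.31, and 88 were above zero, against 78.5% of all regions. Gata6 itself had 19 regions with a median of 0.20, and its most accessible one, at the promoter, went from 1.19 to 1.46 RPM in averages. The most accessible region of Gata4, a related GATA factor, went from 0.842 to 1.21 RPM and that of Hnf4a, a nuclear receptor of the endoderm, from 0.146 to 0.296 RPM. At Sox17 a region 74.5 kb upstream held 0.481, 0.637 and 0.736 RPM at 16 h and 0.856, 1.06 and 0.719 RPM at day 1. Only the day 1 library C overlapped the 16 h libraries. At Lhx1, a LIM homeobox gene, a region 67.6 kb upstream held 0.470, 0.680 and 0.968 RPM and then 0.994, 1.42 and 0.734 RPM, with the same library in overlap (limma, 0.56 ± 0.37, adjusted p = 0.71).

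The receptor tyrosine kinases Pdgfra, Kit and Kdr, neighbours on chromosome 5, had 42 regions with a median change of 0.40. The change was above zero at 41 (97.6%, against 78.5% of all regions). By gene the medians were 0.36, 0.38 and 0.49. Of their regions 7 of 42 had day 1 libraries that were all higher (8.46% over all regions), none lower. A region 197 kb upstream of Kit, the receptor of stem cell factor, held 0.157, 0.192 and 0.182 RPM at 16 h and 0.392, 0.506 and 0.287 RPM at day 1. Its libraries did not overlap (limma, 1.01 ± 0.36, adjusted p = 0.59). The most accessible region of Pdgfra, which marks primitive endoderm, lay 8.49 kb upstream and held 0.742, 0.958 and 1.48 RPM and then 1.23, 1.75 and 1.01 RPM, with overlap (limma, 0.34 ± 0.37, adjusted p = 0.80). At Kdr, a receptor of VEGF, a region 152 kb from the start held 0.172, 0.187 and 0.354 RPM and then 0.447, 0.666 and 0.295 RPM, and the day 1 library C was below the 16 h library C.

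Genes that build the basement membrane had 112 regions with a median of 0.22, close to that of all regions. Among the most accessible, the promoter of Serpinh1, a collagen chaperone, held 1.11, 1.42 and 2.22 RPM at 16 h and 1.88, 2.69 and 1.67 RPM at day 1. A region 115 kb upstream of Col4a2, which encodes a chain of collagen IV, held 0.0575, 0.0431 and 0.0409 RPM and then 0.0883, 0.164 and 0.130 RPM. The first overlapped and the second did not (limma, 0.42 ± 0.37 and 1.01 ± 0.33, adjusted p = 0.77 and 0.56). A region 44.3 kb upstream of Lamc1, which encodes a laminin chain, held 1.10, 1.22 and 1.91 RPM and then 1.5, 2.27 and 1.38 RPM, with overlap.

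Endocytic receptors and adaptors of the visceral endoderm had 45 regions with a median of 0.30. A region 2.90 kb upstream of Amn, the partner of cubilin, held 0.392, 0.685 and 1.00 RPM at 16 h and 1.19, 1.51 and 0.845 RPM at day 1. The day 1 library C fell within the range of 16 h (limma, 0.80 ± 0.37, adjusted p = 0.63). Genes of secreted visceral endoderm proteins, such as Apoe and Ttr, had 20 regions and the lowest median of the 13 lists, 0.16. The Apoe promoter region held 0.930, 1.25 and 1.92 RPM and then 1.26, 2.07 and 1.13 RPM, with overlap.

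In signalling, 97 regions near FGF ligands, receptors and feedback genes had a median of 0.22, and 74 near Nodal and BMP genes 0.29. A region 206 kb from the start of Dusp6, a phosphatase that acts on ERK, held 0.115, 0.283 and 0.445 RPM at 16 h and 0.397, 0.799 and 0.363 RPM at day 1, with overlap (limma, 0.90 ± 0.35, adjusted p = 0.61). A region 28.4 kb upstream of Id3, a target of BMP, held 0.0470, 0.0431 and 0.123 RPM and then 0.210, 0.266 and 0.0956 RPM, with overlap in the day 1 library C (limma, 1.13 ± 0.35, adjusted p = 0.54).

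Regions near pluripotency genes were more accessible at day 1 in most cases too. The 198 regions of 15 core and naive factors had a median of 0.26, and 168 were above zero (84.8%, against 78.5% of all regions). Past 2-fold, 0 were higher (0.467% of all regions) and 1, near Klf5, lower (0.00472%). The most accessible region near Nanog, 4.86 kb upstream, held 0.601, 1.01 and 1.52 RPM at 16 h and 1.25, 2.35 and 1.37 RPM at day 1, with overlap (limma, 0.69 ± 0.37, adjusted p = 0.66). Averages near Pou5f1, which encodes OCT4, were 0.676 and 1.04 RPM, and near Sox2 0.892 and 1.28 RPM. At Esrrb the most accessible region was at 1.08 and 1.09 RPM. By day 4 the averages of these regions lay below those of 16 h, at 0.537 RPM near Nanog, 0.450 near Pou5f1, 0.207 near Sox2 and 0.829 near Esrrb. Formative genes such as Otx2 and Pou3f1 had 36 regions with a median of 0.28.

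Lists of other lineages had few regions. The medians were 0.38 for trophoblast genes (29 regions), 0.23 for mesoderm and definitive endoderm genes (24, with the Cxcr4 region) and 0.38 for neural genes (13). A region 67.8 kb from Sox1, a neural SOX gene, held 0.0522, 0.00958 and 0.050 RPM at 16 h and 0.0883, 0.0977 and 0.0842 RPM at day 1, without overlap (limma, 0.91 ± 0.33, adjusted p = 0.59). Regions near all 9 feeder fibroblast markers were present, 27 in all, with a median of 0.17 and summed averages of 2.99 RPM at 16 h and 3.65 RPM at day 1. Near Prrx1, a mesenchymal homeobox gene, the libraries held 0.214, 0.355 and 0.423 RPM and then 0.309, 0.382 and 0.241 RPM, and near Dcn, 23.0 kb from the start of decorin, 0.0157, 0.0192 and 0.0273 RPM and then 0.0828, 0.0666 and 0.0536 RPM. The first overlapped and the second did not. The part of feeder cells in the results was not tested. Only 441 of the 818 regions of the 13 lists had recovered libraries, from 7 of 45 for endocytic receptors to 42 of 42 for receptor tyrosine kinases. Among these limma called 0, and with libraries set to the same median it called 1, the Cxcr4 region. At an unadjusted p under 0.05 in limma, 36 of the 441 were higher and 1 lower. Over all recovered regions these shares were 7.3% and 0.28%.

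**Figure D5:**
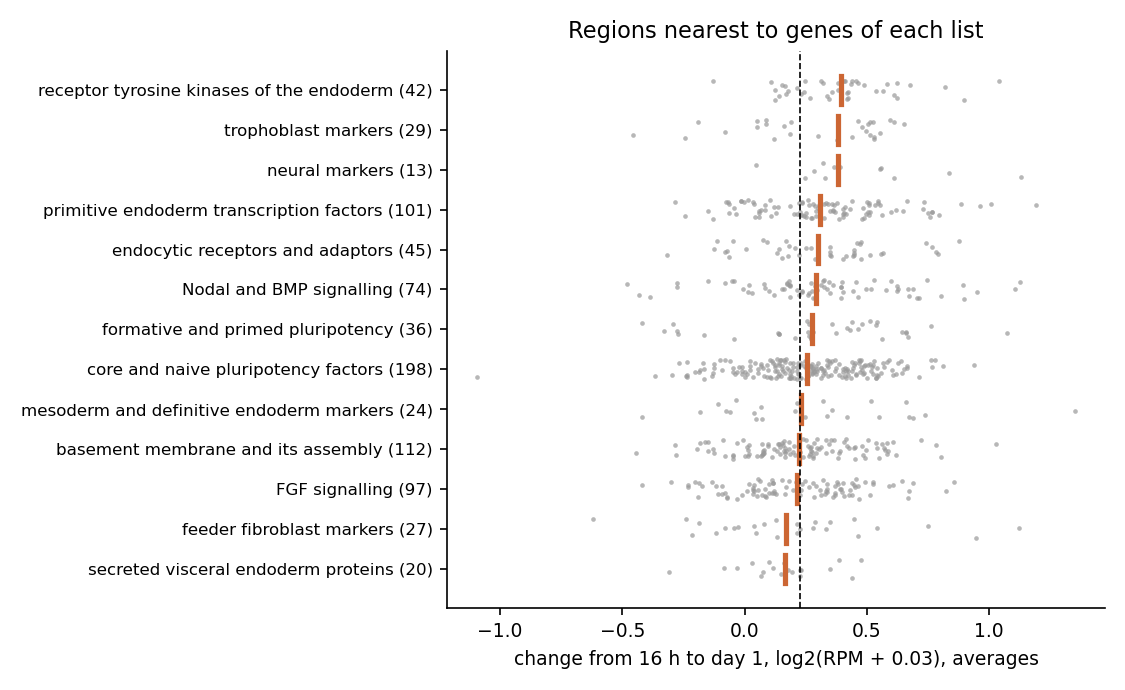
Change from 16 h to day 1 of each region (x axis, log2(RPM + 0.03), averages) for the regions nearest to the genes of each list (y axis, number of regions in brackets), with the median of a list as a bar. The dashed line is the median of all regions, 0.23, and list medians run from 0.16 for secreted visceral endoderm proteins to 0.40 for receptor tyrosine kinases.

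The most accessible regions of each GATA6 course changed by less than the spread of the libraries. Upstream of Rhof, which encodes a small GTPase, the highest Early&Constant region held 3.07, 4.24 and 6.55 RPM at 16 h and 4.52, 7.25 and 4.27 RPM at day 1. At Tomm40, a subunit of the mitochondrial import pore, the Late promoter region held 1.39, 2.01 and 3.20 RPM and then 2.32, 3.05 and 2.38 RPM. At Map4, a microtubule-associated protein, the Transient promoter region held 1.07, 2.15 and 3.19 RPM and then 2.40, 3.10 and 2.46 RPM. All of these overlapped (limma, log2 differences 0.24, 0.30 and 0.43, SE 0.37, adjusted p 0.76 to 0.86), and in all of them the 16 h library C was above the day 1 libraries A and C.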

How the data were processed

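The authors aligned ATAC-seq reads to mm10, and the submitters' processing notes name bcl2fastq, cutadapt, Bowtie2 and SAMtools. The deposited values are RPM of fragments under 100 bp, counted in each region with bamsignals and given as 1 average for each group, with 1 read apparently added to each region of a library. The motif scores are the authors' deposited scores of motif matches, and the classes are theirs. A further 53 columns of other assays were not used. The members and gene lists were chosen with earlier results of these data known.

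Whole reads of single libraries were recovered at 24999 regions whose averages kept full precision, within 1e-08 reads, with at least 95% of values to be decoded. This step was tested on simulated data. The libraries carry arbitrary letters and no replicate number, and the d0 average gave none. limma 3.58.1 in R 4.3.3, with a mean trend, was fitted to log2(RPM + 0.03) of the 14 libraries of 8 h to day 4, with Benjamini-Hochberg adjustment over 24999 regions. Class medians per library were compared by 2-sided exact permutation tests.

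Nearest genes were those with the nearest protein-coding start in the annotation of GRCm38.p6, and distances are from the summit of the GATA6 peak to that start. An intron was one of any protein-coding gene, which need not be the gene with the nearest start. Named were the 10 largest differences each way, the most accessible regions of each GATA6 course and of each listed gene, and the region of lowest p in each list, of which 1 is not reported here. The regions called after median scaling, Sox17, Hnf4a, Nanog, Pou5f1, Sox2 and Esrrb were named after their values were seen. Alternatives were other constants (0.006 and 0.15 RPM), median and quantile scaling, a filter of 0.1 RPM, a 1.5-fold limit and leaving out each library.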

Additional observations from a re-analysis of the deposited data

How the results depend on the processing

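No paired analysis was possible because the recovered libraries carry no replicate number. The 198 regions higher past 2-fold became 1191 with a constant of 0.006 RPM, 1 with 0.15 RPM, 17 with median scaling, 16 with quantile scaling and 4372 at 1.5-fold, and the 2 lower ones became 68, 0, 16, 12 and 111, and 0 with a filter of 0.1 RPM. The 1 region called higher by limma became 2 with 0.006 RPM, 0 with 0.15 RPM, 19 with median and 35 with quantile scaling, and 0 to 10 when each library was left out in turn (10 without 16 h library C). The 0 called lower became 2 with median and 3 with quantile scaling, and the 0 called for a change of pace 2 higher with median scaling and 26 higher and 21 lower with quantile scaling. The 0 calls near mesoderm and definitive endoderm genes became 1 with median scaling.

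Class changes over libraries turned negative with median scaling in Late (-0.10), Transient (-0.040) and closed regions (-0.026), regions without SOX17 (-0.073), without PTFs (-0.044) and with GATA6 increased on Oct4 knockdown (-0.078). With quantile scaling they did so in Late (-0.016), Transient (-0.062), moderate (-0.036) and accessible regions (-0.011), regions without SOX17 (-0.064), with PTFs at d0 (-0.028) and with GATA6 increased (-0.037). These scalings set the median or the whole distribution of the libraries equal. Of 14 contrasts, Late minus Transient turned to 0.046 with quantile scaling and 0.087 with the filter (-0.15 to 0.12 without single libraries), PTFs at d0 minus none to -0.028 with quantile scaling (-0.053 to 0.21), and closed minus accessible Early&Constant regions to -0.10 with 0.15 RPM (-0.10 to 0.14). The cause was not tested. The SOX17 contrast widened by 0.14 to 0.23 without single libraries.

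With median scaling the differences near Rhof (-0.013), Tbx3 (-0.017), Apoe (-0.12), Tdgf1 (-0.044), Tfcp2l1 (-0.094) and Col1a2 (-0.0064) turned negative, and with quantile scaling those near Tbx3 (-0.035), Tomm40 (-0.043), Lamc1 (-0.064), Lrpap1 (-0.034), Apoe (-0.21), Tdgf1 (-0.13), Id3 at 3.43 kb (-0.038), Tfcp2l1 (-0.19), Dnmt3a (-0.062) and Col1a2 (-0.11). Without single libraries they ran from -0.021 to 0.52 near Rhof, -0.13 to 0.40 near Apoe, -0.092 to 0.41 near Tdgf1, -0.12 to 0.39 near Tfcp2l1, -0.028 to 0.56 near Dnmt3a, -0.070 to 0.61 near Col1a2 and -0.31 to 0.13 near Prrx1. With 13 to 32 reads in the median region of a library, a difference of 1.47 on the log2 scale at a single region (SE 0.34 to 0.36) did not pass limma at this depth and spread.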
